A study of Homo sapiens with 16 samples.

Results

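OCI-AML3 is an established human acute myeloid leukemia (AML) cell line, and the 4 RNA-seq libraries of its untreated cells, of 16 libraries in all, are described here for what the line expressed before any compound was given. The libraries were chosen by the treatment entry of their labels, which reads Untreated. The labels give peripheral blood as the tissue of all 16 libraries and AML as the cell type. The other 12 libraries, which enter no value below, came from OCI-AML3 cells given ATRA, AM80, or either retinoid together with GSK-LSD1 and MB3, in 3 libraries each. The labels name no vehicle and no time for the untreated cells, and a cell line stands for the leukemia of 1 donor after long culture. The repeats carry only numbers, and nothing in the labels says that they came from separate cultures, so the spread between them may be technical.

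AML arises when a hematopoietic progenitor keeps dividing and stops short of becoming a granulocyte or monocyte. Leukemias with mutated NPM1, the class to which OCI-AML3 is known to belong, typically keep a set of HOX genes on that stem and progenitor cells use, together with the cofactor MEIS1, and often lack the stem cell antigen CD34. Retinoids act through the receptors RARA, RARB and RARG, which pair with an RXR, and the demethylase LSD1 (KDM1A) and the acetyltransferase GCN5 (KAT2A) are chromatin enzymes whose inhibitors the study combined with retinoids.

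Between 11963898 and 17929315 reads were counted per untreated library over 62700 genes. The deposited values are counts divided by a size factor per library, and all of them came out as whole reads when the factor was multiplied back in. A level is given below as TPM, the reads of a gene per base of its exons scaled to a sum of 1000000 in each library, so that genes of different length can be set side by side. A gene with at most 3 reads in every untreated library was taken to be at the floor, and for such a gene the text gives its reads and the TPM that 3 reads would stand for in the library where that is highest. These limits cover counting error only. Where 4 values are given for a gene they are those of replicates 1 to 4 in order, and a mean is followed by the SD over the 4 libraries. Untreated replicate 4 stood apart from the rest. Its log2 ratio to the mean of the other libraries had a median of 0.29 in the shortest of 5 length bins of 10454 protein-coding genes and of -0.21 in the longest, and it was the highest library for 43.4% of these genes and the lowest for 35.3%. Between replicates 1, 2 and 3 the variation over genes was 3.48 to 4.93 times counting noise (chi-square per degree of freedom), and between replicate 4 and each of them 15.2 to 22.4 times. Long genes therefore tended to read lower, and short genes higher, in replicate 4, and levels without it are given where they moved by more than 1.5 times.

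**Figure D1:**
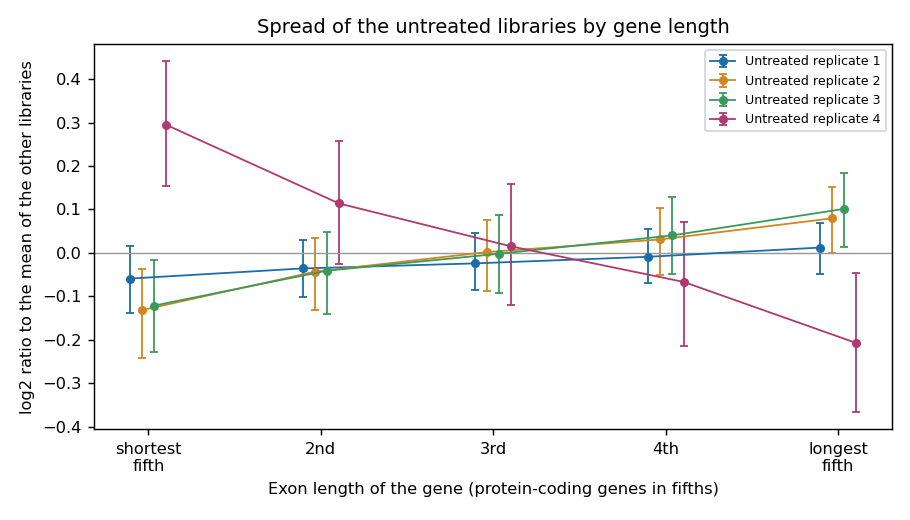
The log2 ratio of each untreated library to the mean of the other libraries, by exon length of the gene in 5 bins of equal size over 10454 protein-coding genes that averaged 50 normalized counts or more. Points are medians, bars span the quartiles, and replicate 4 runs from 0.29 in the shortest genes to -0.21 in the longest.

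Of 415 genes in 10 lists of lineage, leukemia, receptor, HOX and surface genes, 290 were above the floor and 125 at it, 58 of these without a read in any untreated library. Among all 19831 protein-coding genes of the table, 67.6% were above the floor, 57.2% had a mean of at least 1 TPM and 40.8% a mean of at least 10 TPM. The median level of the protein-coding genes above the floor was 16.8 TPM, and that of the listed genes above the floor 21.1 TPM. The share above the floor was 92.5% for AML genes, 84.6% for cytokine, growth factor and chemokine receptors, 77.6% for nuclear receptors with the LSD1 and GCN5 partners, 76.4% for hematopoietic transcription factors, 75.4% for surface antigens, 70.6% for the LSC17 stemness genes and 70.0% for myeloid effector genes. HOX genes and their cofactors, at 51.0%, and markers of other cell types, at 26.8%, lay below the background. All 9 markers of a myeloid blast (CD33, ANPEP, ITGB2, PTPRC, SPI1, CEBPA, MPO, LYZ and CSF3R) were above the floor, and 8 of the 9 reached 10 TPM (40.8% of protein-coding genes), the exception being MPO. The set of 9 leaves out CD34, KIT and HLA-DRA, which were at the floor, so its count does not by itself name the cells. In bulk RNA a low level in every cell and a higher level in few cells cannot be told apart.

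**Figure D2:**
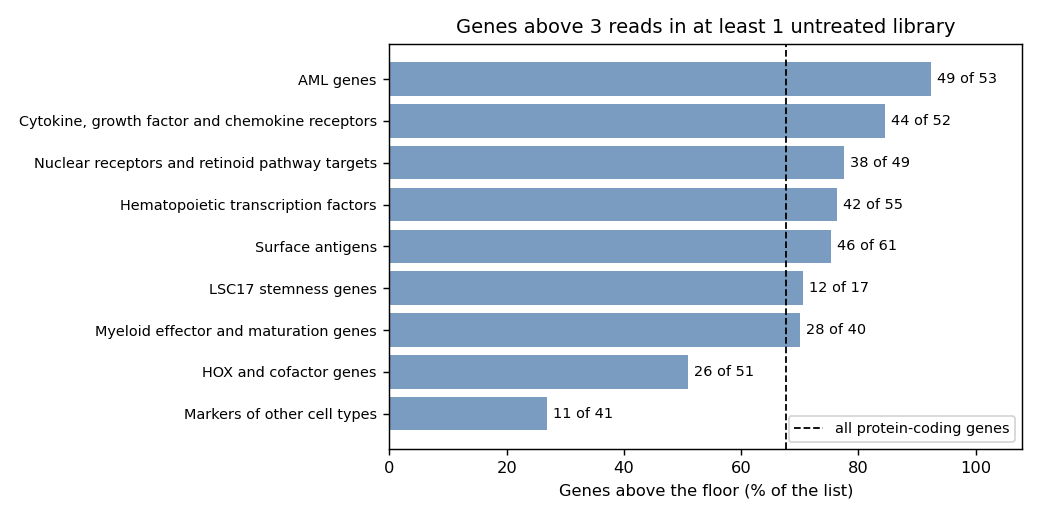
Share of each gene list above the floor of 3 reads in at least 1 untreated library, with the number of genes beside each bar. The dashed line is the share of all protein-coding genes, 67.6%, and the AML genes reach 49 of 53 while markers of other cell types reach 11 of 41.

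HOX genes code for homeodomain transcription factors and stand in 4 clusters on separate chromosomes, in an order that matches the body axis they pattern. In untreated OCI-AML3 cells 17 of the 39 HOX genes were above the floor, beside 67.6% of protein-coding genes. All 17 belonged to the HOXA and HOXB clusters. Expression was concentrated at one end of HOXA: HOXA9, HOXA10, HOXA11 and HOXA13 together made up 79.0% ± 0.427 (SD, n = 4) of the summed HOX level of 515 ± 11.7 TPM. HOXA9, the member best known for sustaining leukemic self-renewal, was at 94.5, 101, 97.8 and 98.1 TPM in replicates 1 to 4. HOXA10 was at 105, 99.1, 103 and 99.4 TPM, and its range overlapped that of HOXA9. HOXA11 stood at 91.8, 102, 80.7 and 101 TPM and HOXA13 at 113, 119.9, 124 and 98.4 TPM, so that the order of the 4 genes differed between libraries. The log2 ratio of HOXA9 to HOXA10 was -0.06 ± 0.08 (SD, n = 4), with HOXA9 higher in 1 of 4 libraries. A two-sided exact sign-flip permutation test gave p = 0.375, and 4 libraries cannot give a p below 1 in 8 in it. HOXA9 and HOXA10 overlap in position on the same strand, as do HOXA3 with HOXA4 to HOXA6 and HOXB3 with HOXB4 to HOXB6. How far exons shared on a strand affect their levels and ratios was not examined.

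The HOXA genes on the other side of HOXA9 were low or at the floor. HOXA7, which lies next to HOXA9, had 0, 3, 2 and 1 reads, and 3 reads would be at most 0.358 TPM. HOXA5 reached 3.37, 4.94, 4.51 and 4.23 TPM. HOXA3 and HOXA6 had means of 0.813 ± 0.199 and 1.44 ± 0.365 TPM (SD, n = 4), and HOXA2 and HOXA4 were at the floor with 4 and 5 reads over the 4 libraries. The step between HOXA7 and HOXA9 was thus the sharpest along the cluster, from the floor to a mean of 97.8 TPM, and was present in every library. For HOXA7, 62.5% of the exon bases lie across from HOXA-AS3, and how far this affected its reads was not tested.

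In the HOXB cluster 9 of 10 genes were above the floor, beside 67.6% of protein-coding genes. Their levels were below those of HOXA9 to HOXA13. HOXB2 was at 24.8, 21, 22.9 and 25.9 TPM and HOXB3 at 21.3, 23, 22.9 and 18.2 TPM, ranges that overlapped. HOXB6 followed at 15.7 ± 1.37 TPM and HOXB4, a regulator of stem cell expansion, at 13 ± 0.851 TPM. HOXB7, HOXB8, HOXB5, HOXB9 and HOXB13 ranged from 9.26 down to 2.26 TPM on average, and HOXB1 had no read, which allows at most 0.349 TPM. HOXA9 was higher than HOXB3 in 4 of 4 libraries, with a log2 ratio of 2.20 ± 0.15 (SD, n = 4; the exact sign-flip permutation test gave the smallest p it can, 1 in 8, and 0.133 after Benjamini-Hochberg adjustment over 17 gene pairs). None of the 9 HOXC genes and none of the 9 HOXD genes passed the floor, and the 18 genes drew 11 reads in all. The CDX genes, which switch HOX genes on in the embryo, were at the floor as well, with no read of CDX1 or CDX4 and 0, 2, 1 and 1 reads of CDX2.

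**Figure D3:**
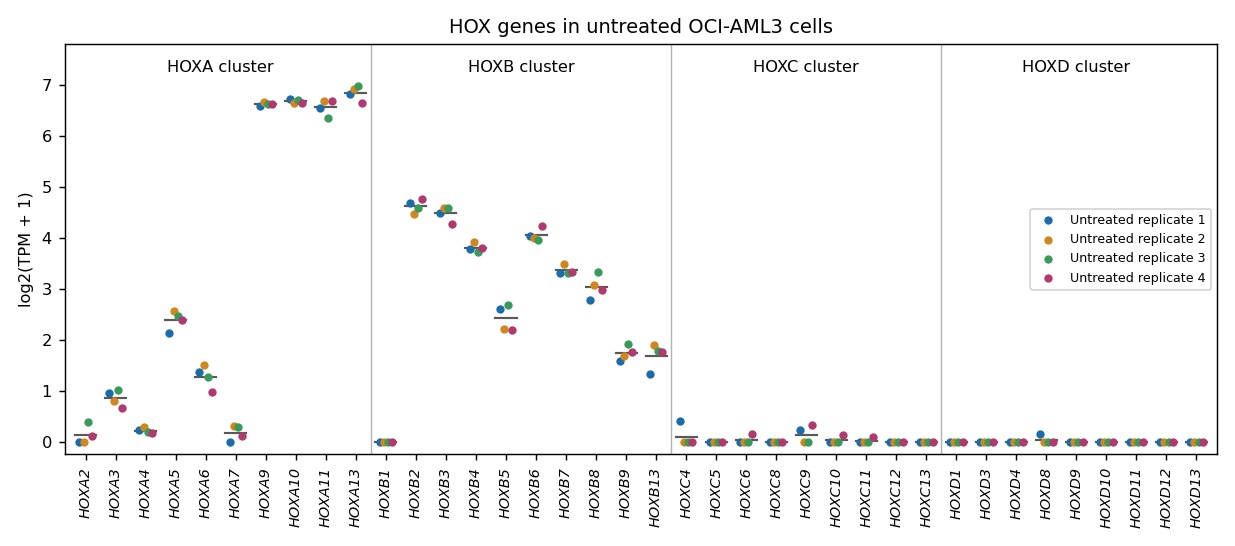
Levels of HOX genes as log2(TPM + 1), in cluster order, with a point for each of the 4 untreated libraries and a bar at their mean. HOXA9, HOXA10, HOXA11 and HOXA13 sit together above all HOXB genes in every library, and the HOXC and HOXD genes lie at or near 0.

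HOX proteins bind DNA with cofactors of the TALE family, and all 9 measured TALE genes were above the floor, beside 67.6% of protein-coding genes. MEIS1, the partner that speeds HOXA9-driven leukemia, was at 9.64, 9.18, 9.52 and 7.16 TPM, lowest in replicate 4. With the length of the principal transcript in place of all exons its mean was 14.6 TPM. PBX3 was at 20.8, 22, 21.1 and 21.9 TPM and PKNOX1 at 23.9 ± 1.81 TPM, while MEIS3 and PKNOX2 were under 1 TPM. HOXA9 exceeded MEIS1 by a log2 ratio of 3.47 ± 0.21 and PBX3 by 2.19 ± 0.02 (SD, n = 4), each in 4 of 4 libraries, and the ratio to MEIS1 was 2.68 with the lengths of the principal transcripts.

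Noncoding RNAs are transcribed from between and across the HOX genes, and 9 of the 16 listed ones were above the floor, beside 21.8% of all 14710 long noncoding genes of the table. They came from the same clusters as the coding genes. HOTTIP, transcribed from beyond HOXA13, had 25.9 ± 1.60 TPM, HOXA11-AS 37.8 ± 2.53 TPM, HOXA10-AS 20.9 ± 1.18 TPM and HOXB-AS3 65.5 ± 9.80 TPM (SD, n = 4). HOTAIRM1, at the opposite end of the cluster, had 9.43 ± 0.899 TPM, and HOTAIR of the HOXC cluster and HAGLR of the HOXD cluster had no read, which allows at most 0.332 and 0.169 TPM. Whether reads were counted by strand is not given in the sources used here, and the exons of many of these genes lie across from a HOX gene. For example, 31.1% of the exon bases of HOXA11 overlap HOXA11-AS, and 62.3% of those of HOXA10-AS overlap HOXA10, so that reads of these pairs cannot be told apart.

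Myeloid fate is set by a small group of transcription factors, and 14 of the 15 listed myeloid factors were above the floor, beside 67.6% of protein-coding genes. IRF8, which directs progenitors towards monocytes and dendritic cells, had the highest level of all 55 listed transcription factors, at 970.0, 936, 947 and 958 TPM. SPI1, the gene of PU.1, the master factor of myeloid cells, was at 457, 435, 455 and 472 TPM. CEBPA, which drives the granulocytic branch, was at 494, 477, 428 and 564 TPM, but 43.4% of its exon bases lie across from an antisense gene. The levels of SPI1 and CEBPA overlapped, and IRF8 lay above both in every library.

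The other C/EBP genes were at lower levels than CEBPA. CEBPB, used in emergency granulopoiesis, stood at 92, 79.5, 77.3 and 114 TPM, highest in replicate 4, and CEBPD and CEBPG at 160.2 and 97.9 TPM on average. CEBPE, which switches on the late granule genes of maturing neutrophils, had only 1, 8, 2 and 6 reads, or 0.580 TPM. CEBPA was above CEBPB in 4 of 4 libraries, by a log2 ratio of 2.45 ± 0.12 (SD, n = 4).

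Progenitor factors that drive division were high. MYC was at 451, 412, 457 and 388 TPM and MYB at 296, 309.9, 309.6 and 248 TPM, both lowest in replicate 4. GFI1, a repressor of granulocyte progenitors that recruits LSD1, was at 208, 217, 199.7 and 195 TPM. RUNX1, the DNA-binding subunit of core-binding factor, was lower at 19.2, 22.2, 22.1 and 13.8 TPM, or a mean of 31.4 TPM with the length of its principal transcript, while its partner CBFB averaged 166 ± 17.6 TPM. LMO2 averaged 156 TPM and LYL1 60.5 TPM, and TAL1, their usual partner in stem cells, 3.27 TPM. Several genes that mark long-term stem cells or high-risk leukemia were at the floor: HLF and PRDM16 had no read, MECOM had 0, 0, 0 and 1 reads and HMGA2 0, 0, 0 and 2.

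Factors of other lineages were mostly near or at the floor. GATA2, shared by stem cells, mast cells and early progenitors, was at 10.2, 10.2, 11.4 and 8.60 TPM, while GATA1, the master factor of red cells and platelets, had 1, 2, 0 and 1 reads, at most 0.576 TPM. Against the floor of 3 reads, SPI1 was at least 794-fold and GATA2 at least 17.7-fold above GATA1 in the library with the smallest ratio. KLF1, an erythroid factor, had 3, 5, 2 and 6 reads and GFI1B 0, 1, 1 and 2. Of 17 lymphoid factors, 11 were above the floor and 6 reached 1 TPM, beside 67.6% and 57.2% of protein-coding genes. The highest were TCF3 at 132 and IKZF1 at 86.1 TPM, which myeloid progenitors also use. PAX5, the B cell master factor, had 5, 11, 5 and 10 reads (0.186 TPM), while EBF1, which acts before it in B cells, averaged 3.22 ± 0.417 TPM. The T cell factors GATA3, LEF1, BCL11B and TBX21 were at the floor, but TCF7 averaged 1.10 ± 0.123 TPM.

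Genes listed for recurrent mutation in AML or related myeloid neoplasms were nearly all transcribed. Of these, 37 of 38 were above the floor, beside 67.6% of protein-coding genes. NPM1, a nucleolar chaperone and the gene whose mutation defines the class of this line, was at 1233, 1327, 1169 and 1305 TPM, next to CALR at 1430.0 TPM on average as the highest genes of the list. Of the 38 genes 11 reached 100 TPM, as did 7.68% of all protein-coding genes. The splicing gene SRSF2 averaged 628 TPM and the cohesin genes RAD21 and SMC3 334 and 178 TPM. The splicing genes ZRSR2 and U2AF1 averaged 26.7 and 4.85 TPM and the cohesin gene STAG2 86.9 TPM. Whether reads of U2AF1 were lost to a near-identical copy was not examined, so its low value may not measure its expression. For SRSF2, 36.7% of the exon bases lie across from MFSD11. The DNA methylation genes DNMT3A and TET2 were at 21.9, 23.8, 23 and 16.4 TPM and at 9.05, 9.54, 9.60 and 6.71 TPM. NRAS, a signaling GTPase, was at 89.1, 89, 86.5 and 72 TPM, and replicate 4 lay below the other libraries. The single member at the floor was KIT. These are levels of the genes and say nothing of the alleles, since the table holds no sequence.

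Markers of risk gave a mixed picture. ERG, an ETS factor, had 6.79 ± 0.533 TPM and WT1, a zinc finger factor common in leukemic blasts, 4.76, 4.15, 5.05 and 4.81 TPM, or 8.03 TPM on average with the length of the principal transcript. MN1 had 5, 7, 5 and 5 reads, a mean of 0.167 TPM, and BAALC and MECOM were at the floor with 2 reads and 1 read in all. The LSC17 score is a published weighted sum of 17 genes measured to rank AML by stemness. Some weights are negative, among them those of CDK6 and CPXM1, and the score was not computed here. Of the 17 genes 12 were above the floor in OCI-AML3, close to the background of 67.6%. The level was concentrated in BEX3 at 183 ± 16.5 TPM, LAPTM4B at 149, 146, 153 and 162 TPM and the cell cycle kinase CDK6 at 69.1, 61.3, 64.7 and 36.6 TPM, where replicate 4 lay well below the other libraries. LAPTM4B averaged 345 TPM with the length of its principal transcript. DNMT3B was at 14.8 ± 1.33 TPM and CPXM1 at 18.3 ± 0.723 TPM. CD34, ADGRG1 (GPR56), MMRN1, FAM30A and SMIM24 were at the floor, with 1, 1, 1 and 1 reads of CD34 and 3, 0, 0 and 1 of ADGRG1.

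Granule proteins are made in waves as neutrophils mature, and OCI-AML3 cells expressed most genes listed with the earliest wave at high levels. All 10 genes listed with the primary granule were above the floor, beside 67.6% of protein-coding genes. Of the 10 genes 9 reached 100 TPM, as did 7.68% of protein-coding genes. Their summed level was 18165 ± 1624 TPM (SD, n = 4). The list holds SRGN, LYZ, MS4A3, RNASE2 and RNASE3, which are not specific to this granule, so the sum does not measure the granule alone. CTSG, which codes for the serine protease cathepsin G, was at 6798, 6379, 5900.4 and 8131 TPM, the highest mean level of any protein-coding gene outside the mitochondrial genome. It was highest in replicate 4 and its normalized counts varied with a CV of 20.1%. SRGN, the proteoglycan that packs granule proteases, followed at 6387, 6522, 6279 and 7160.1 TPM and exceeded CTSG in replicates 2 and 3. RNASE2 averaged 1674 ± 181 TPM, LYZ (lysozyme) was at 1247, 1254, 1270.0 and 1313 TPM, and MS4A3 averaged 698 ± 38 TPM. For LYZ, 34.0% of the exon bases lie across from another gene. The other serine proteases of the granule were lower, with ELANE (neutrophil elastase) at 522, 457, 489 and 655 TPM, PRTN3 (proteinase 3) at 213, 190.1, 228 and 231 TPM and AZU1 (azurocidin) at 186, 187, 184 and 207 TPM.

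MPO was the exception within this wave. Myeloperoxidase is the classical enzyme of the primary granule and a standard marker of myeloid blasts, yet MPO had only 33, 51, 33 and 48 reads, or 2.69, 2.84, 2.40 and 2.81 TPM. ELANE exceeded MPO in 4 of 4 libraries, the log2 ratio of MPO to ELANE being -7.62 ± 0.22 (SD, n = 4; exact sign-flip permutation test, adjusted p = 0.133). Later waves were nearly silent. LTF (lactoferrin), LCN2, CRISP3 and OLFM4, products of the secondary granule, had no read in any library, which allows at most 0.203, 0.540, 0.384 and 0.298 TPM. CAMP, the cathelicidin gene, had 2, 5, 1 and 5 reads and MMP8 0.746 TPM on average, while MMP9, which monocytes also make, was at 38.9 ± 2.20 TPM.

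**Figure D4:**
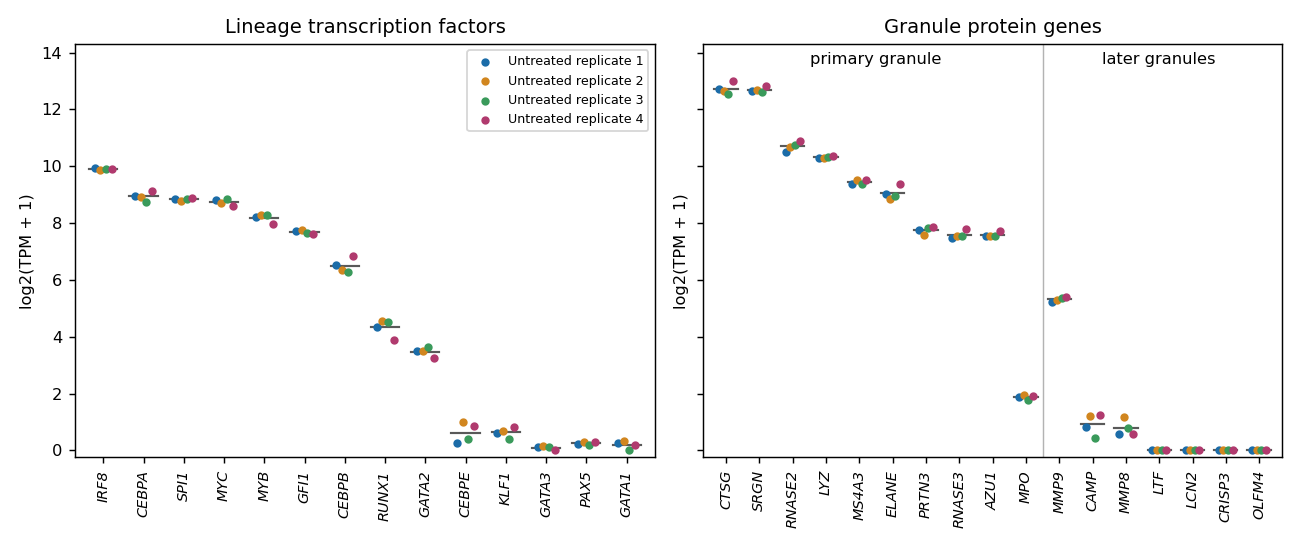
Levels of lineage transcription factors (left) and granule protein genes (right) as log2(TPM + 1), with a point for each untreated library and a bar at the mean. CTSG and SRGN exceed 5900 TPM in every library, MPO lies under 3 TPM, and LTF, LCN2, CRISP3 and OLFM4 are at 0.

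Because CEBPA, SPI1 and MYB, the factors known to act on the primary granule genes, were all transcribed at high levels, the promoters of these genes are shown. RefSeq promoter sequence (GRCh38.p14) was at hand for 6 of the 10 genes, and the 250 bases before the start of each are given 5′ to 3′ on the strand of the gene, with matches to the C/EBP core letters TTGCNNAA on either strand in capitals.
PRTN3 (chr19:840749-840998, plus strand): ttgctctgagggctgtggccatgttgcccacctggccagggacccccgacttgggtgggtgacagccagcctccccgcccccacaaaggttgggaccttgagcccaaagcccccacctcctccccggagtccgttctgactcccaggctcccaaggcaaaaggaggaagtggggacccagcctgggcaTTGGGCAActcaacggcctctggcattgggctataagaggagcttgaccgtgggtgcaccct
AZU1 (chr19:827587-827836, plus strand): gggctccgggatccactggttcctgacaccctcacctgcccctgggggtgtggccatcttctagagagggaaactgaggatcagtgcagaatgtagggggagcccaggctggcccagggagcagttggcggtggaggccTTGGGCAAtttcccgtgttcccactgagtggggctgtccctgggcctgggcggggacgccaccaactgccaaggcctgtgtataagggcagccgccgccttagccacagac
CTSG (chr14:24576251-24576500, minus strand): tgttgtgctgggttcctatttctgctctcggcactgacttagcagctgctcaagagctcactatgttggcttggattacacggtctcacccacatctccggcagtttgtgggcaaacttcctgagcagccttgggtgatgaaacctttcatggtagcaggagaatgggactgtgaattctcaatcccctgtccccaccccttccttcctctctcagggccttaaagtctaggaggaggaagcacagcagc
MS4A3 (chr11:60056415-60056664, plus strand): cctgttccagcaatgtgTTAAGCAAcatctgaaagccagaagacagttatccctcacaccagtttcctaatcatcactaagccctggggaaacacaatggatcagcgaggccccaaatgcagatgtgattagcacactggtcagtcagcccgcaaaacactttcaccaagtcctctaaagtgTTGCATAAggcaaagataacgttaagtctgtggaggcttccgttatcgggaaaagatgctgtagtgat
RNASE2 (chr14:20955237-20955486, plus strand): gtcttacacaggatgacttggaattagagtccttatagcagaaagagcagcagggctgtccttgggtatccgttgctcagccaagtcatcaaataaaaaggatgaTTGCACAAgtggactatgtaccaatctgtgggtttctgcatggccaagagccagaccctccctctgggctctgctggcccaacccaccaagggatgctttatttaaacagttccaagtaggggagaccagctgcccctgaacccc
RNASE3 (chr14:20891135-20891384, plus strand): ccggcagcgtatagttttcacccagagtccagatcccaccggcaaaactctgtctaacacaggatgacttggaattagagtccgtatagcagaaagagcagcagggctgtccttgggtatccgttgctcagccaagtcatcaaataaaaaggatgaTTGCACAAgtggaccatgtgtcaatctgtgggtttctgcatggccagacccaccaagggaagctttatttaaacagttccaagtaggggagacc
Matches were found in 5 of the 6 promoters, beside 9.13% of all 27305 promoters of the same length. The matched letters of PRTN3 and AZU1, neighbouring genes on chromosome 19, were the same, TTGGGCAA, at 62 and 111 bases before the start. RNASE2 and RNASE3 are paralogs and share the match TTGCACAA, so that they are not separate examples. MS4A3 held a pair of matches, and CTSG, the gene of the highest level, held none of these letters in this window. The PU.1 core GAGGAA was found in 2 of the 6 promoters (CTSG and PRTN3) and 23.4% of all promoters, and the MYB core AACNG in 6 of the 6 and 70.6% of all. Among all listed myeloid effector genes with a promoter sequence, the C/EBP core was found for 8 of 19 above the floor and 3 of 9 at the floor, and among protein-coding genes for 6.35% of those above the floor and 9.49% of those at it. A match is a description of the letters and does not show binding.

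Genes of phagocytes beyond the granules were expressed in part. Of the NADPH oxidase, which makes superoxide, 5 of 5 listed subunit genes were above the floor, beside 67.6% of protein-coding genes. Among them were CYBB at 291, 329.8, 311 and 274 TPM, NCF4 at 419 ± 47.1 TPM, CYBA at 403 ± 66.1 TPM and NCF1 at 54.2 ± 3.88 TPM. NCF1 has near-identical copies, and NCF1C drew 492 to 711 reads beside 698 to 943 of NCF1, so that its level is uncertain. Of 10 monocytic genes 8 were above the floor, beside 67.6% of protein-coding genes. The calprotectin pair S100A8 and S100A9 was at 174, 161, 139.9 and 209.6 TPM and at 339, 384, 349 and 484 TPM, both highest in replicate 4. CST3 averaged 332 ± 37.6 TPM, CTSS 89.1 ± 3.04 TPM and VCAN 57.2 ± 12.1 TPM, while the monocyte genes FCN1, S100A12 and CD163 had 3.69, 7.52 and 2.60 TPM and the macrophage receptor MRC1 was at the floor. Of 8 genes listed for eosinophils, basophils and mast cells, 2 were above the floor, beside 67.6% of protein-coding genes. These were EPX at 0.390 and MS4A2 at 1.36 TPM. RNASE2 and RNASE3, which code for granule proteins of eosinophils, are not among the 8, being counted with the primary granule.

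Surface antigens serve to classify AML and as targets of antibodies. The myeloid antigens were above the floor in 16 of 18 cases, beside 67.6% of protein-coding genes. Of the 18 genes 10 reached 10 TPM, beside 40.8% of protein-coding genes. ITGB2 (CD18), the shared chain of the leukocyte integrins, had the highest level of the 61 listed surface genes at 476, 470.1, 470.0 and 477 TPM, with little spread. Its partner ITGAM (CD11b), the usual marker of myeloid differentiation, was at 1.87, 2.07, 1.35 and 1.78 TPM and ITGAX (CD11c) at 3.36 ± 0.636 TPM. CD33, an AML target, was at 47.2, 47.8, 46 and 43.2 TPM, or 123 TPM on average with the length of its principal transcript. ANPEP (CD13) was at 32, 30.9, 33.7 and 26.7 TPM, and the monocyte antigens CD4 at 173, 188, 176 and 167 TPM, CD36 at 59.9 ± 4.82 TPM, CD86 at 17.7, 17.3, 19 and 17.8 TPM and CD14 at 9.46, 9.67, 9.92 and 10.7 TPM. FCGR3A (CD16), which mature cells carry, was at the floor.

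Stem and progenitor antigens divided sharply. CD34 had 1, 1, 1 and 1 reads in a gene where 3 reads are at most 0.0937 TPM, KIT (CD117) had 1, 1, 0 and 2 reads, PROM1 (CD133) none and THY1 (CD90) 2, 2, 2 and 0. FLT3 (CD135), a kinase receptor of progenitors, was at 74.1, 75.5, 77.2 and 67 TPM, and CD93 averaged 89.4 ± 9.99 TPM. Against the floor, FLT3 was at least 478-fold above KIT and CD33 at least 504-fold above CD34. With the lengths of the principal transcripts the mean log2 ratio of CD33 to the floor of CD34 was 11.13 in place of 9.24. ITGAM, low as it was, lay at least 9.78-fold above KIT in the library with the smallest ratio. These are RNA levels, and surface protein was not measured in these libraries.

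**Figure D5:**
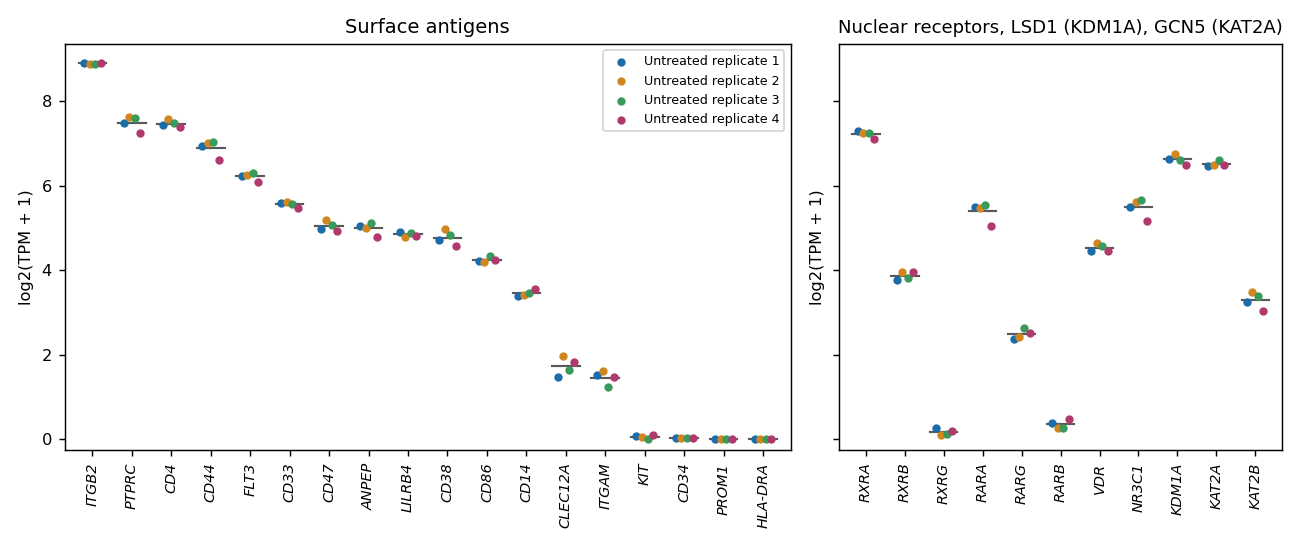
Levels of surface antigen genes (left) and of nuclear receptors with KDM1A, KAT2A and KAT2B (right) as log2(TPM + 1), a point for each untreated library and a bar at the mean. ITGB2 is the highest and KIT, CD34, PROM1 and HLA-DRA lie at or near 0, and RXRA and RARA exceed the other members of their families.

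Of 17 AML antigens and antibody targets 13 (76.5%) were above the floor, not far from the 67.6% of all protein-coding genes. IL3RA is counted as at the floor here, though its zero reads do not measure its expression, as set out below. CD70, a TNF family ligand, averaged 145 ± 16.7 TPM, CD44 was at 120.4, 127, 131 and 95.7 TPM and CD38 at 25.3, 30.2, 27.5 and 22.6 TPM. CD47, the signal that restrains macrophages, was at 30.6, 35.5, 32.8 and 29.2 TPM over all exons, but at 133 TPM on average with the length of its principal transcript, the largest such difference of the genes examined. LILRB4, a monocytic checkpoint, was at 28.9, 26.6, 28.6 and 27 TPM. CLEC12A (CLL-1) was at 1.77, 2.90, 2.13 and 2.54 TPM and HAVCR2 (TIM-3) averaged 0.130 ± 0.0898 TPM. CD96 and CD274 (PD-L1) had no read and CD52 had 1. The leukocyte antigen PTPRC (CD45) was at 177, 197, 193 and 149 TPM and the transferrin receptor TFRC at 84.5, 97.3, 90.1 and 77.4 TPM, whereas CD48 had no read, which allows at most 0.264 TPM. HLA-DRA had no read either, at most 0.675 TPM, while CD74, the chain that guides class II molecules, averaged 109 ± 6.70 TPM and HLA-B and HLA-C 141 and 36.7 TPM. Among antigens of other lineages that AML panels include, NCAM1 (CD56) was at 42.8 ± 6.52 TPM, and CD7, CD2 and CD22 were at the floor.

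Cytokine receptors carry the signals that myeloid cells need to survive and mature. Of these, 16 of 20 were above the floor, beside 67.6% of protein-coding genes. CSF3R, the G-CSF receptor of the granulocytic branch, was at 60.4, 66.2, 67.9 and 54.1 TPM and CSF1R, the M-CSF receptor of the monocytic branch, at 11.7, 13.3, 12.5 and 11.4 TPM. The log2 ratio of CSF3R to CSF1R was 2.34 ± 0.09 (SD, n = 4), with CSF3R higher in 4 of 4 libraries, and 3.26 with the lengths of the principal transcripts. IL6R averaged 299 ± 20.5 TPM, far above its signaling partner IL6ST at 5.12 ± 0.746 TPM. CSF2RB, the shared chain of the GM-CSF, IL-3 and IL-5 receptors, was at 28.4, 28.7, 29 and 25.8 TPM. Its partner chains CSF2RA and IL3RA (CD123) had no read in either of the 2 rows that each has in the table. Both genes lie in the region that the X and Y chromosomes share, where all 15 protein-coding rows on X had no read, among them SLC25A6 and CD99, so that the zero reads of IL3RA and CSF2RA do not measure their expression, although both are counted above as at the floor.

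Of the chemokine and chemoattractant receptors 7 of 8 were above the floor, as were 5 of 6 Toll-like receptors and 5 of 5 TNF and TGF-beta receptors. The share over all protein-coding genes was 67.6%. CXCR4, which holds progenitors in the marrow, was at 571, 589.9, 585 and 563 TPM, the highest of the 52 listed receptors. CCR1 and CCR2 averaged 225 ± 11.5 and 68.2 ± 6.19 TPM and CX3CR1 18.9 ± 0.704 TPM, while the neutrophil receptors CXCR1 (no read), FPR1 (1.33 TPM) and C5AR1 (1.03 TPM) were low and CXCR2 averaged 17 ± 1.06 TPM. Of the Toll-like receptors TLR2 averaged 90.2 ± 9.27 TPM and TLR4 10.4 ± 1.39 TPM. The TNF receptors TNFRSF1A and TNFRSF1B (CD120b) were at 111 ± 2.55 TPM and at 55.8, 57.9, 50.2 and 56.2 TPM. Among the receptor tyrosine kinases 11 of 13 were above the floor, but only FLT3, INSR (23.2 TPM) and CSF1R reached 10 TPM, and EGFR and PDGFRA, at 0.0479 and 0.0526 TPM, show how low a gene above the floor can be.

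ATRA activates the RARs in general and AM80 is selective for RARA. Of the 6 RAR and RXR genes 5 were above the floor, beside 67.6% of protein-coding genes. RARA was at 44.2, 43.1, 45.5 and 32.2 TPM, lowest in replicate 4. RARG was at 4.15, 4.32, 5.20 and 4.70 TPM and RARB had 4, 4, 3 and 7 reads, or 0.280 TPM. The log2 ratio of RARA to RARG was 3.16 ± 0.28 and that of RARA to RARB 7.24 ± 0.64 (SD, n = 4), RARA being higher in 4 of 4 libraries in each pair (exact sign-flip permutation test, adjusted p = 0.133). With the lengths of the principal transcripts the ratio of RARA to RARB was 7.95. For RARA, 17.9% of the exon bases lie across from RARA-AS1. RXRA, the partner of the RARs, was at 156, 149, 150.3 and 136 TPM, RXRB at 12.6, 14.6, 13 and 14.5 TPM and RXRG at the floor with 2, 1, 1 and 2 reads. The log2 ratio of RXRA to RXRB was 3.44 ± 0.18 over all exons and 5.59 with the lengths of the principal transcripts, where RXRA averaged 574 TPM.

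Other nuclear receptors were above the floor in 20 of 30 cases, beside a background of 67.6%. The highest were ESRRA at 72.7 ± 5.64 TPM and NR1H2 (LXR beta) at 56.6 ± 4.83 TPM. NR3C1, the glucocorticoid receptor, was at 44.1, 47.8, 49.8 and 34.8 TPM and VDR, the vitamin D receptor, at 21, 24.1, 22.6 and 20.7 TPM. PPARD and THRA averaged 26.7 and 31.3 TPM. The steroid receptors PGR, ESR2 and NR3C2 were at the floor, as were the tissue-specific receptors HNF4A, NR5A1 and NR5A2, which had no read.

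All 13 genes listed for the LSD1 and GCN5 complexes were above the floor, beside 67.6% of protein-coding genes. Of these, 11 reached 10 TPM, as did 40.8% of protein-coding genes. KDM1A (LSD1) was at 98.2, 107, 96.2 and 88.8 TPM and KAT2A (GCN5) at 86.7, 89.2, 95.6 and 88.5 TPM. Their log2 ratio was 0.11 ± 0.13 (SD, n = 4), KDM1A being higher in 4 of 4 libraries but by only 0.00999 in replicate 3 and 0.00534 in replicate 4, and 0.68 with the lengths of the principal transcripts. After thinning to the shallowest library KDM1A was higher in 2 of 4 libraries, so that no order of these genes held. KAT2B (PCAF), the paralog of GCN5, was at 8.53, 10.2, 9.42 and 7.13 TPM, below KAT2A in 4 of 4 libraries by a log2 ratio of 3.36 ± 0.21. Of the CoREST scaffolds RCOR1 averaged 77.5 ± 10.4 TPM, RCOR3 28.7 ± 3.79 TPM and RCOR2 2.61 ± 0.697 TPM. The deacetylases HDAC1 and HDAC2 averaged 192 ± 10 and 50.1 ± 2.18 TPM, and TADA3, an adaptor that GCN5 needs, 98.7 ± 2.73 TPM.

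Markers of other cell types were above the floor in 11 of 41 cases, and 8 reached 1 TPM, beside 67.6% and 57.2% of protein-coding genes. None of the 8 erythroid and none of the 5 epithelial genes passed the floor, with no read of HBA1, HBA2, HBB, HBG1 and HBG2. Of the T cell genes only CD5 passed, at 0.129 TPM. The B cell gene MS4A1 had no read. Of the NK cell genes NCAM1 and NKG7 (10.1 ± 2.71 TPM) were above the floor, and KLRD1 and GNLY at it. The platelet genes GP1BA and ITGA2B had 3.77 and 1.06 TPM, with PF4 unread, and the dendritic gene CD1C 6.0 ± 1.46 TPM. PECAM1, which leukocytes share with endothelium, was at 28.6 ± 3.63 TPM, while CDH5 and VWF were at the floor. Of the 3 collagen genes COL1A2 averaged 1.32 ± 0.234 TPM in all 4 libraries and COL3A1 was at the floor. COL1A1 passed the floor only through replicate 4, with 2, 0, 0 and 4 reads, and its mean level of 0.0356 TPM became 0.548 times as large without that library.

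The spread between libraries can be read against counting noise. Protein-coding genes with at least 50 normalized counts had a median CV of 8.94% and a median chi-square per degree of freedom of 3.89. The median chi-square was 2.96 for listed genes above the floor. These include genes with fewer counts, so the medians cannot be set against each other. In 16 of the 17 gene pairs compared, all 4 libraries had the same order, which is as far as 4 libraries can go (adjusted p = 0.133 each, exact sign-flip permutation test), and none passed 0.05 after adjustment. The genes were chosen with earlier results of these data known, so the shared order is a description. In the pairs with GATA1, KIT or CD34 that gene was at the floor and entered at 3 reads. The order of KDM1A and KAT2A did not hold after thinning.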

How the data were processed

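RNA of untreated OCI-AML3 cells was sequenced in 4 libraries. Per the labels, RNA was isolated with a NucleoSpin kit and libraries were made with NEBNext Ultra II, whereas the study's methods name a ZR MiniPrep kit and TruSeq Stranded mRNA with single-end reads. The submitters' processing notes list FastQC, cutadapt, STAR, featureCounts and DESeq2, and the methods name Galaxy. Genome build, annotation and strand setting are not given in the sources used here. The signal values deposited by the authors are DESeq2-normalized counts, that is reads per gene divided by a size factor. Reads were recovered from them, 100% of values being whole within 0.01.

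Genes were matched by identifier to GENCODE 29 (58207 of 62700 rows), and TPM used the union of the exons of a gene. Rows without a length held 0.175% to 0.206% of reads. Levels are given per library, as mean and SD, with no test between groups. Gene pairs were compared within libraries by a two-sided exact sign-flip permutation test with Benjamini-Hochberg adjustment. Depth and the floor of 3 reads limit low genes. Any listed gene could be named, key genes being given per library, with the highest genes of each list and those at the floor that had reads. Outside the lists the 10 highest and the 10 most variable protein-coding genes (by CV, mean of at least 50 normalized counts) could be named. Single values of some listed genes are not reported here, although list counts and sums include them. The members and lists were chosen with earlier results of these data known. Alternatives were each library left out, thinning to the shallowest library, other floors, principal transcript lengths (APPRIS) and normalized counts per kilobase. Computation used Python 3.11.15 (matplotlib 3.10.9, pandas 2.3.3, scipy 1.17.1, numpy 2.4.6), and the scripts were tested on simulated data.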

Additional observations from a re-analysis of the deposited data

Results flagged for a closer look

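Among 72 key genes above the floor, 3 had 1 library whose gap to the nearest other library took up more of the range over the 4 libraries than Dixon's 95% critical value for 4 samples. In all 3 genes the library was replicate 4, which read low for NRAS (72.0 TPM) and CSF2RB (25.8 TPM) and high for AZU1 (207 TPM). Chance flags about 1 group in 20, and 3 of 72 is near that rate. Over 10454 protein-coding genes 7.69% passed the limit, and replicate 4 was the library that stood apart in 79.6% of those. The part of this library in the levels of the 3 genes was not tested.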

How the results depend on the processing

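The counts of genes above the floor, for 10 lists and all protein-coding genes, stayed within 1.5 times under all 8 alternatives: each library left out, thinning to the shallowest library, a floor of 10 reads, a gene above the floor in every library, and a mean of at least 1 TPM. The mean log2 ratio of the 17 gene pairs kept its sign under all 6 alternatives tried for them, but KDM1A was above KAT2A in 2 of 4 libraries, not 4, after thinning (exact sign-flip permutation p = 0.5). Leaving out a library moved 1 of the 73 key levels by more than 1.5 times, that of COL1A1 without replicate 4. Normalized counts per kilobase and thinning moved none by more than their SD. The length of the principal transcript moved 58 of 73 levels by more than their SD and 23 by more than 1.5 times: 8 higher, up to 4.14 times for CD47, and 15 lower, to 0.644 times for CAMP at the least. Levels between genes thus depend on the transcript length assumed. Depth limits the genes with few reads. No paired analysis was possible because only untreated libraries were used and no groups were compared.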

Other observations

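Genes of antigen presentation by MHC class II molecules were looked up after HLA-DRA was seen to have no read, so they were chosen after values were seen. HLA-DRB1, HLA-DPB1, HLA-DQA1, HLA-DQB1 and HLA-DOA also had no read in any untreated library, HLA-DPA1 and HLA-DMB had 1 read each, and HLA-DMA had 3, 4, 4 and 2 reads. CIITA, the coactivator that class II genes need, had 14, 29, 13 and 27 reads, a mean of 0.224 ± 0.0558 TPM (SD, n = 4). The DNA-binding factors of the same promoters were expressed, RFX5 at 54.7 ± 4.11 TPM, RFXANK at 61.5 ± 6.23 TPM and RFXAP at 15.3 ± 2.07 TPM. HLA genes differ between people, and how reads of such alleles were mapped was not tested.

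The most variable protein-coding genes between the untreated libraries were linker histones. H1-5 had 141, 1, 6 and 8 reads and H1-4 had 130, 6, 9 and 10, so that replicate 1 stood above the other libraries. H1-2 followed with 156, 69, 48 and 104 reads. H1-3, looked up afterwards, had 25, 1, 0 and 0 reads. Of 9 core histone genes looked up in the same way, 9 were highest in replicate 1 in normalized counts, by 1.42 times the mean of the other libraries for H2AC6 (143, 139, 102 and 150 reads), a median of 1.92 times, and 25.1 times for H3C2 (72, 4, 4 and 3 reads). H1-10, another linker histone, had 206 to 296 TPM and was not highest in replicate 1. TMEM160, C4orf48 and CRLS1, next in variability, were highest in replicate 4, at 118, 55.0 and 10.6 TPM against 41.8 to 62.4, 23.5 to 28.7 and 4.39 to 5.95 TPM in the other libraries. The causes were not tested.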
